A study of Mus musculus with 8 samples.

Results

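The unfolded protein response is the set of signals by which a cell meets a load of unfolded protein in the endoplasmic reticulum (ER), and 39 genes of that response and of the ER folding machinery were followed here on arrays labelled as mouse mammary tumours. The genes are given by symbol or synonym, and each was matched to array probes through the RefSeq accession that the probe carries. The rule that selects them uses no measured value, but they were listed with earlier results of these data known. All 39 were measured and tested, out of 16377 named genes and 34543 tested items in all, an item being a named gene or a probe without a gene name. They are represented by 47 non-control probes, of which 46 were well above background on all 8 arrays and 1, a second probe of Dnajb11, on none.

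Each of the 8 arrays is labelled as a tumour grown from 4T1 cells, an established mouse mammary carcinoma line of BALB/c origin. Before implantation the cells of both groups were infected for 24 h with adenovirus at a multiplicity of infection of 50. The control group (4 arrays) received the empty virus, and the PRH group (4 arrays) received a virus carrying PRH, the transcription factor encoded by Hhex. The cells went into fat pad number 3 of female BALB/c mice aged 6 to 8 weeks, which are immunocompetent hosts, and tumours were collected on day 22, so the infection preceded the measurement by the whole growth of the tumour. Each group holds the mouse numbers 1, 2, 3 and 5, which are used here to name the arrays.

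The labels disagree on the material: the series' design has RNA taken from each tumour and the extraction protocol names endothelial isolates. No source used here decides between them. The design also calls the arrays human, while the probes carry mouse accessions. All 8 mammary carcinoma markers examined, keratins, Epcam and Cdh1 among them, and all 7 tested endothelial markers of 8 listed were well above background on every array. Their summed linear levels, in units of the array's 75th percentile, were far apart. The carcinoma markers summed to 298 to 385 on control arrays and 393 to 521 on arrays labelled PRH. The endothelial markers summed to 8.25 to 20.1 and 20.5 to 27.5. What these levels say about the material was not tested. The level of Hhex itself, given as all levels here on a log2 scale on which 0 is the 75th percentile of the array's signals, was -0.54, -0.33, -0.69 and -0.78 on the control arrays and -1.71, -1.46, -1.79 and -1.72 on the arrays labelled PRH, a difference of -1.09 (SE 0.149, limma adjusted p = 0.00686). The gene of the delivered protein was thus lower where the label has it added, and the group is called PRH-labelled throughout. Whether the probe can read the viral transcript is not given in the sources used here.

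The 3 sensors in the ER membrane start the response. Perk (gene Eif2ak3) phosphorylates a translation initiation factor, which slows protein synthesis and favours translation of Atf4; Ire1 (gene Ern1) splices the Xbp1 mRNA into its active form; and Atf6 is cut in the Golgi to release a transcription factor. Together these factors raise chaperones such as Bip (gene Hspa5), oxidoreductases that form disulphide bonds, and the machinery of ER-associated degradation, which recognises misfolded proteins, passes them back through the membrane and marks them with ubiquitin. The arrays read transcript amount, not Xbp1 splicing, phosphorylation or protein.

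The regulatory elements through which these factors act are short, and their letters are shown because several of the genes described below carry them. The ER stress response element (ERSE) was searched as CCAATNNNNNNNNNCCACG, its second form (ERSE-II) as ATTGGNCCACG, the element bound by Atf4 (CARE) as TGATGNAA, and the Xbp1-type element (UPRE) as TGACGTGG, each on both strands of the 250 bases before the annotated start. RefSeq promoters of assembly GRCm38.p6 were found for 35 of the 39 genes (36 promoters, as Derl2 has 2). The ERSE stood in promoters of 10 genes (10 of the 36 promoters), against 0.113% of 32851 promoters of that length. The ERSE-II stood in 1, against 0.0304%, the CARE in 4 (Asns, Atf3, Chac1 and Herpud1), against 3.45%, and the UPRE in none, against 0.563%. Atf6, Derl1, Hyou1 and Manf had no entry. A match is a description of the letters and not a measured binding site. As the genes were listed for their part in this response, the comparison with all promoters is no test.

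The ERSE matches follow, read 5′ to 3′ on the strand that carries them, with the fixed letters in capitals.
Hspa5: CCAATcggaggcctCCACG
Calr: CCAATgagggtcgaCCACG
Canx: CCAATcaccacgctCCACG
Hsp90b1, farther from the start: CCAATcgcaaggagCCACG
Hsp90b1, nearer to the start: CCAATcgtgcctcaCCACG
Pdia6: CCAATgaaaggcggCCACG
Creld2: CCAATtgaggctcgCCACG
Dnajc3: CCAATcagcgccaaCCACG
Ero1lb: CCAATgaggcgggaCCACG
Derl3: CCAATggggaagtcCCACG
Syvn1: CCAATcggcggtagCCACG

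Of these 10 genes, 2 (Ero1lb and Syvn1) passed the test described below and the other 8 did not. Whole 250-base stretches are given for Herpud1, the gene with the largest difference, for Syvn1, another gene that was lower, and for Hspa5, the best known ERSE gene, which did not pass. They lie on the plus strand of GRCm38.p6 at chr8:94386179-94386428, chr19:6046326-6046575 and chr2:34771840-34772089, each ending at the base before the start of the gene. Capitals mark the ERSE-II and, upstream of it on the other strand, the CARE in Herpud1, and the ERSE in the other 2.
Herpud1: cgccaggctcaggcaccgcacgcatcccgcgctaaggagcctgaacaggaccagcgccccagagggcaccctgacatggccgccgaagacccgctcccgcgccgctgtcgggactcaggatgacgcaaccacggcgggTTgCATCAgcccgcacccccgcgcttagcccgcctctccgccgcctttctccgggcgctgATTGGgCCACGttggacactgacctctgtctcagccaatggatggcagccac
Syvn1: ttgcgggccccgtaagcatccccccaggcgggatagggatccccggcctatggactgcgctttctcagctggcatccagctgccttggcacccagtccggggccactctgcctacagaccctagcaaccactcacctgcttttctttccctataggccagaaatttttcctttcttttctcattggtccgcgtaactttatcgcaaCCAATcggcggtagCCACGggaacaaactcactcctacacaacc
Hspa5: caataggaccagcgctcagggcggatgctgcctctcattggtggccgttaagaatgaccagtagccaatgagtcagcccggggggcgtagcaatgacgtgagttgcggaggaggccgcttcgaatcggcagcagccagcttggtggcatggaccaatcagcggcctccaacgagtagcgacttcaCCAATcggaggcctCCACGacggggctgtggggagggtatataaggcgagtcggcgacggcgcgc

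In the PRH-labelled tumours 8 of the 39 genes were lower and 0 were higher by limma's moderated test at a Benjamini-Hochberg adjusted p under 0.05, and 13 had an unadjusted p under 0.05. The 8 were Herpud1, Edem3, Derl1, Sel1l and Syvn1 of ER-associated degradation, the chaperones Hyou1 and Dnajb9, and the oxidase Ero1lb, and they were 1.47- to 2.50-fold lower. The 20.5% of the genes that were lower stand beside 8.67% lower and 17.2% higher over all tested items, 12.9% lower and 10.6% higher over named genes, and 14.2% lower and 9.95% higher over the 14420 named genes that, like these 39, were well above background on all 8 arrays. The differences were negative for 31 genes and positive for 8, and their median was -0.25 on the log2 scale. The median over all tested items was 0.29, over named genes -0.02 and over those above background on all arrays -0.09. The 4 control and 4 PRH-labelled values did not overlap for 12 genes on the lower side (30.8%, against 19.1% of the 14420 genes) and for 1, Wfs1, on the higher side (13.2% of the 14420). In bulk tissue, fewer cells of a type and less RNA per cell cannot be told apart.

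**Figure D1:**
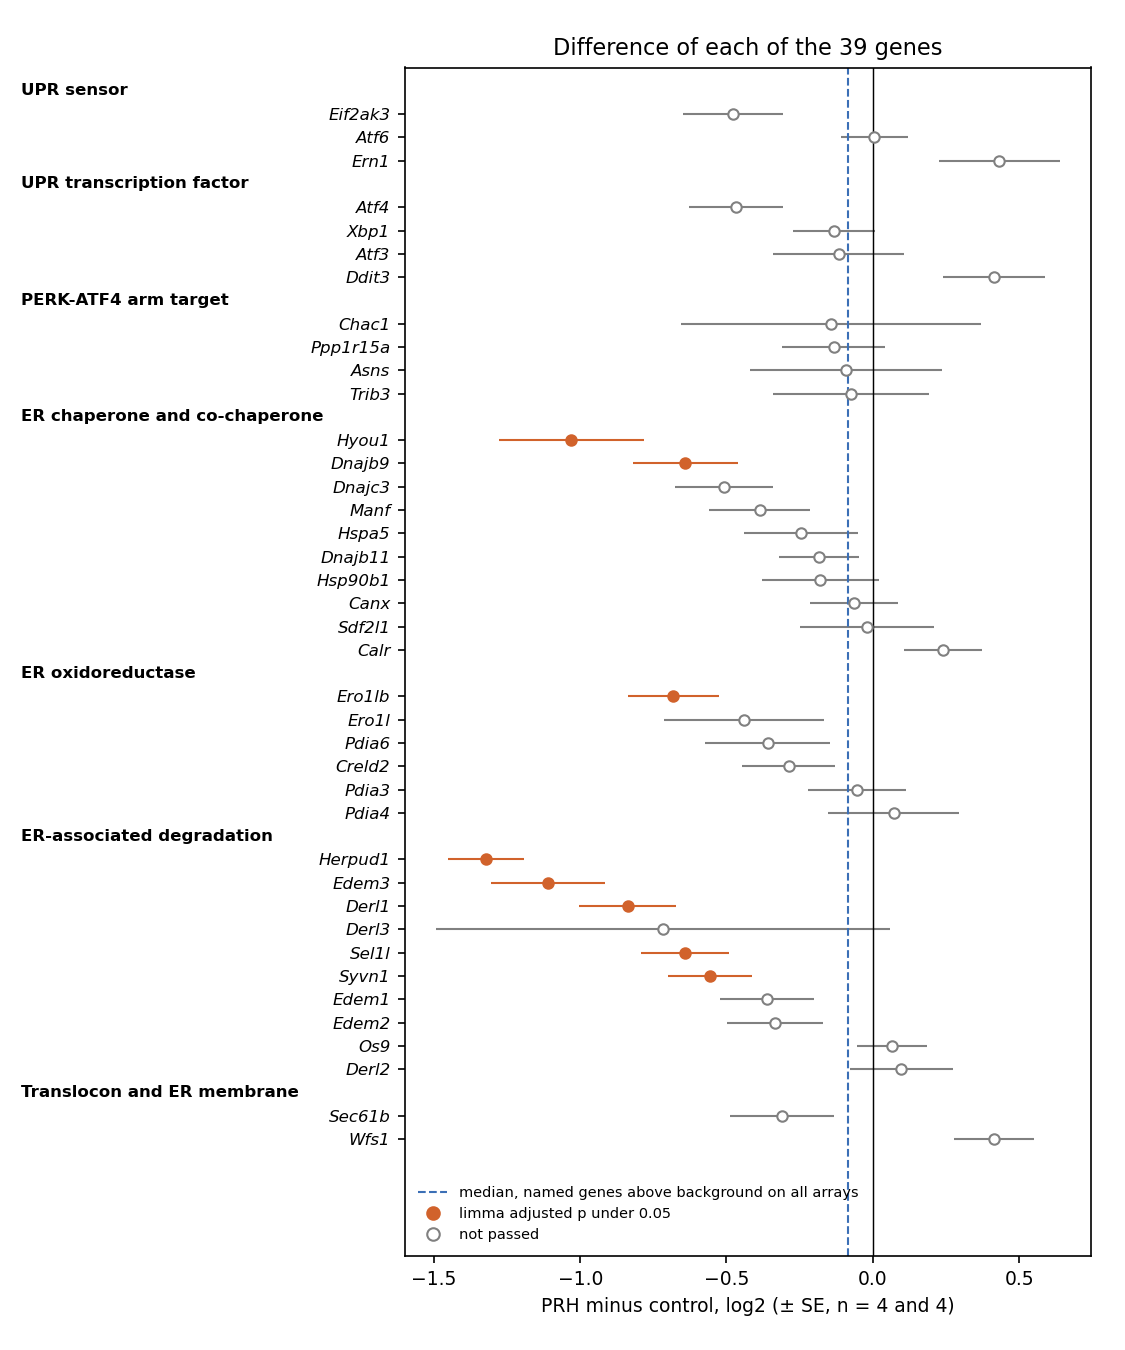
Difference between PRH-labelled and control tumours (log2, x axis) for each of the 39 genes (y axis), grouped by role, with the standard error of the limma fit (4 and 4 arrays). Filled points passed an adjusted p of 0.05; 5 of the 8 are in ER-associated degradation, and the dashed line at -0.09 is the median of named genes above background on all arrays.

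The arrays of the 2 groups also differed as a whole. The 75th percentile of signal lay between 1002.89 and 1282.57 on control arrays and between 679.1 and 761.55 on PRH-labelled ones, and 64.2% to 69.8% and 72.2% to 73.9% of probes were well above background. All arrays lay on 1 slide and 1 scan. The barcode in each file header ends in 2 numbers, taken here as the array's position on the slide. The first of them was 2 on every control array and 1 on every PRH-labelled array, so this part of the position and group cannot be told apart. Control array 1 stood apart in marker genes of other cells: the summed linear level of 6 tested plasma cell markers, in units of the array's 75th percentile, was 70.0 there against 11.5 to 15.6 on the other controls, and that of 5 adipocyte markers was 48.9 against 3.26 to 12.6. Without that array, 13 of the 39 genes were lower (33.3%, against 21.1% of named genes). Leaving out control array 2 left 4 (10.3%, against 6.61%) and PRH-labelled array 5 also 4 (against 6.75%), while control array 5 and PRH-labelled array 1 left 5 each (12.8%, against 6.64% and 6.63%). The count thus moved with single arrays, in the genes followed and in the background alike.

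Genes of ER-associated degradation had the lowest median difference of the 7 roles, -0.60 over 10 genes, of which 5 were lower and 0 higher. Of all named genes well above background on all arrays, 14.2% were lower and 9.95% higher. Herpud1, a membrane protein that helps to assemble the degradation complex around the ubiquitin ligase, was the most changed of the 39. Its level was 2.36, 2.40, 2.37 and 2.15 on control arrays 1, 2, 3 and 5 and 0.87, 1.06, 1.17 and 0.90 on the PRH-labelled arrays in the same order. The groups were 0.98 apart at their nearest values, while arrays of 1 group spanned 0.25 and 0.29, and the difference was -1.32 (SE 0.130, limma adjusted p = 0.00686), 2.50-fold lower. Within mouse numbers it ranged from -1.49 to -1.20. This is the gene whose promoter carries the ERSE-II and the CARE printed above.

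Edem3, an ER mannosidase-like protein that trims glycans and thereby marks glycoproteins for degradation, stood at -0.53, 0.32, -0.02 and 0.04 on control arrays and at -1.31, -1.14, -1.11 and -1.07 on PRH-labelled arrays. It was 2.16-fold lower (-1.11, SE 0.194, limma adjusted p = 0.00853), with control array 1 the lowest of its group and still above every PRH-labelled array. The other 2 members of its family did not pass. Edem1 differed by -0.36 (SE 0.160, limma adjusted p = 0.137) with groups that did not overlap, and Edem2 by -0.33 (SE 0.165, adjusted p = 0.177) with groups that did.

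Derl1, a derlin of the channel through which misfolded proteins leave the ER, had levels of 2.02, 2.64, 2.46 and 2.58 on control arrays and 1.59, 1.48, 1.66 and 1.63 on PRH-labelled arrays. It was 1.79-fold lower (-0.84, SE 0.166, limma adjusted p = 0.0114), and the PRH-labelled arrays lay within 0.18 of each other. A second, dimmer probe of Derl1 gave -0.37 (adjusted p = 0.144), the same sign without passing. Herpud1, Edem3 and Derl1 stayed below an adjusted p of 0.05 in all 8 fits that left out 1 array, the only 3 of the 39 to do so.

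Sel1l and Syvn1 (Hrd1) form the core of a ubiquitin ligase in the ER membrane, Sel1l as the adaptor and Syvn1 as the enzyme. Sel1l read 0.46, 0.98, 0.72 and 0.79 on control arrays and -0.05, 0.20, 0.19 and 0.04 on PRH-labelled arrays, 1.56-fold lower (-0.64, SE 0.150, limma adjusted p = 0.0192). Syvn1 read 3.27, 3.54, 3.29 and 3.56 against 2.70, 3.00, 3.00 and 2.73, 1.47-fold lower (-0.56, SE 0.144, limma adjusted p = 0.0272). Neither overlapped between groups, and both lost their call when control array 2 or 5 or PRH-labelled array 1 or 5 was left out, with adjusted p up to 0.0561 for Sel1l and 0.0782 for Syvn1.

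The remaining degradation genes did not pass either. Os9, a lectin that delivers glycoproteins to the Sel1l complex, differed by 0.07 (SE 0.120), and its 8 levels lay between 3.68 and 3.96. Derl2 differed by 0.10 on its brightest probe and by -0.15 and -0.09 on its other 2, none of which passed. Derl3 was the most uneven gene of the 39. Its level was 0.81 on control array 1, between -2.83 and -2.30 on the other controls and between -2.99 and -2.17 on the PRH-labelled arrays. Its difference of -0.72 (SE 0.775, limma adjusted p = 0.511) became 0.12 without control array 1.

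Derl3 is best known from cells that secrete much protein, plasma cells among them, and the plasma cell genes were read beside it. On control array 1 Jchain stood at 5.42, Mzb1 at 3.21 and Pou2af1 at 2.91, while on the other 7 arrays none of them was above -0.20. Irf4 was -0.29 there and at most -2.82 elsewhere. Of the 6 tested plasma cell markers, Prdm1 and Sdc1 were not highest on that array, and Sdc1, which carcinoma cells also express, was higher in PRH-labelled tumours (0.99, SE 0.215, limma adjusted p = 0.0147). The part of these cells in the level of Derl3 was not tested.

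**Figure D2:**
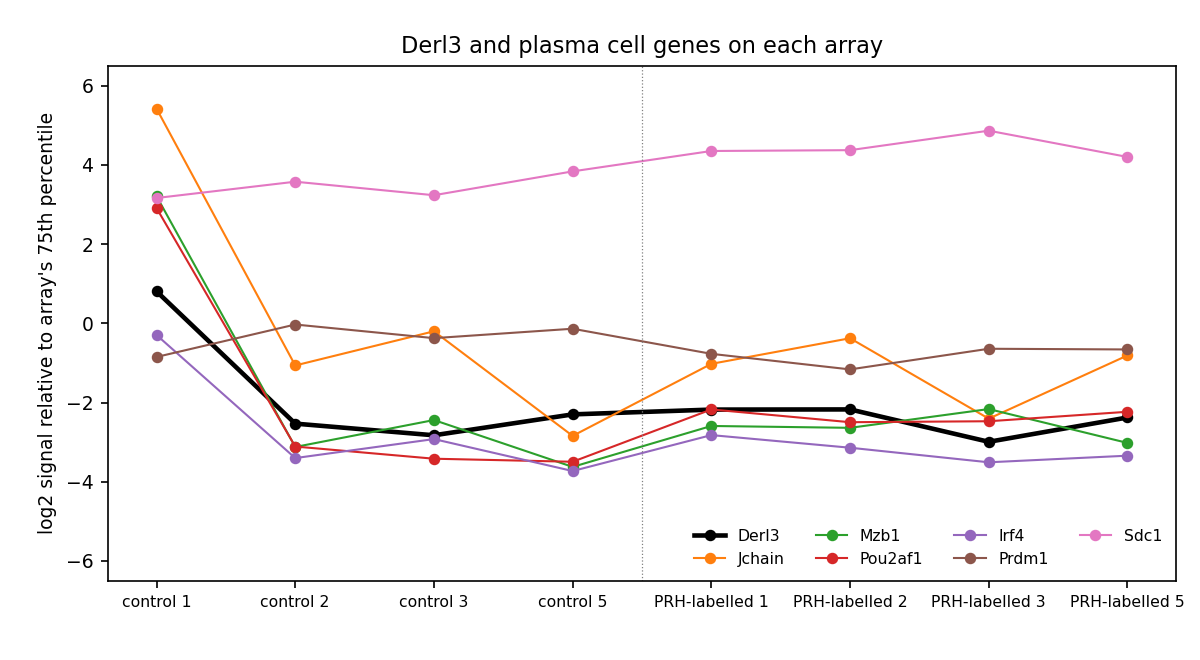
Level of Derl3 (black) and of 6 plasma cell markers (log2, with 0 at the array's 75th percentile, y axis) on each of the 8 arrays (x axis; the dotted line parts the groups). Derl3 is at 0.81 on control 1 and at -2.17 or below elsewhere, and Jchain, Mzb1, Pou2af1 and Irf4 are highest on that same array.

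Among 10 ER chaperones and co-chaperones, 2 were lower and 0 higher, with a median difference of -0.22. The share lower is near the 14.2% of named genes well above background on all arrays, of which 9.95% were higher. Hyou1, a large chaperone of the heat shock 70 family that exchanges nucleotide on Bip, stood at -1.04, -0.69, -0.12 and -0.88 on control arrays and at -1.36, -1.81, -2.10 and -1.57 on PRH-labelled arrays. It was 2.04-fold lower (-1.03, SE 0.248, limma adjusted p = 0.0212), but the groups came within 0.33 of each other at their nearest values, both from mouse number 1, and within mouse numbers the difference ranged from -1.98 to -0.33. With mouse number as a block its limma adjusted p was 0.0508, and it also missed 0.05 without control array 2, PRH-labelled array 2 or PRH-labelled array 3 (up to 0.0566).

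Dnajb9, a J-domain co-chaperone of Bip that also acts on Ire1, read 0.81, 1.50, 0.93 and 1.09 on control arrays and 0.41, 0.33, 0.64 and 0.39 on PRH-labelled arrays. It was 1.56-fold lower (-0.64, SE 0.179, limma adjusted p = 0.0353) and is the least firm of the 8. Its call was lost with mouse number as a block (limma adjusted p = 0.0561) and in 6 of the 8 fits that left out 1 array (up to 0.0900), and its dimmer probe gave -0.12 (adjusted p = 0.642).

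Hspa5, the chaperone Bip that also keeps the 3 sensors inactive, read 6.03, 6.74, 6.78 and 6.73 on control arrays and 6.40, 6.41, 6.27 and 6.22 on PRH-labelled arrays. Control arrays 2, 3 and 5 lay within 0.05 of each other and above all PRH-labelled arrays, and control array 1 lay below all of them. The difference over all arrays, -0.25 (SE 0.195, limma adjusted p = 0.377), did not pass, and without control array 1 it was -0.43 with an adjusted p of 0.0238. Hsp90b1, the ER form of the heat shock 90 family, showed the same order of arrays, with control 1 at 5.57, the other controls from 6.02 to 6.44 and the PRH-labelled arrays from 5.75 to 5.97, and it differed by -0.18 (SE 0.200, adjusted p = 0.522).

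Dnajc3, a co-chaperone that also restrains Perk, read 0.29, 0.68, 0.70 and 0.28 on control arrays and 0.25, -0.09, -0.10 and -0.15 on PRH-labelled arrays. The groups did not overlap, by a margin of 0.028, and the difference of -0.51 (SE 0.168) had a limma adjusted p of 0.0602. Manf, a secreted ER-stress protein, differed by -0.39 and Dnajb11, a J-domain partner of Bip, by -0.18, both with overlapping groups. Of the lectin chaperones of the calnexin cycle, Canx differed by -0.06 and Calr by 0.24 (SE 0.133, adjusted p = 0.225), the latter with a positive sign at every mouse number. Sdf2l1, a partner of the J-domain proteins, differed by -0.02.

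Of 6 oxidoreductases and related redox proteins 1 was lower and 0 higher, with a median difference of -0.32. This share, too, is near the background of 14.2% lower and 9.95% higher. The lower one, Ero1lb (now Ero1b), is an oxidase that feeds disulphide bonds to protein disulphide isomerases. It stood at 0.39, 0.11, 0.38 and 0.05 on control arrays and at -0.29, -0.30, -0.69 and -0.51 on PRH-labelled arrays, 1.60-fold lower (-0.68, SE 0.155, limma adjusted p = 0.0177). Among the 8 fits that left out 1 array, it lost its call only without PRH-labelled array 5 (0.0524). Its paralogue Ero1l (now Ero1a) ranged from -0.31 to 0.95 on control arrays, around -0.27 to 0.12 on PRH-labelled ones, and differed by -0.44 (SE 0.274, limma adjusted p = 0.271).

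The disulphide isomerases themselves did not pass. Pdia6 differed by -0.36 (-0.31 on its second probe), Pdia3 by -0.05 and Pdia4 by 0.07. Creld2, a secreted isomerase-like stress protein, differed by -0.29 with a negative sign at every mouse number (limma adjusted p = 0.222). Pdia6 resembled Hspa5, with control array 1 at 5.44 below its group's 5.92 to 6.44 and the PRH-labelled arrays at 5.45 to 5.65, and without that array it differed by -0.53 (adjusted p = 0.0476). Atf4, Dnajc3, Hspa5, Manf and Pdia6 were the 5 genes that joined the 8 when control array 1 was left out.

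**Figure D3:**
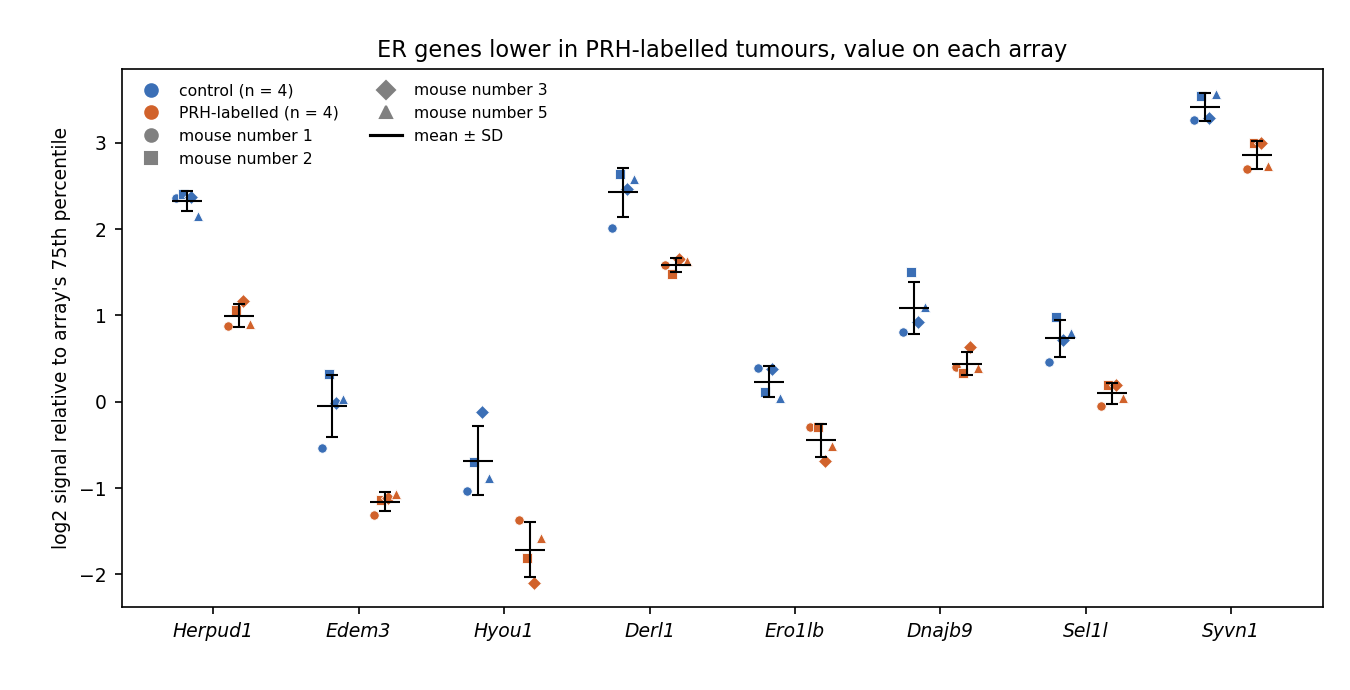
Level of the 8 genes that passed (log2, with 0 at the array's 75th percentile, y axis) on each array, with the mean and SD of each group of 4; marker shapes are mouse numbers. Control (blue) and PRH-labelled (orange) values do not overlap for any of the 8, the gap being widest for Herpud1, whose difference is -1.32.

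None of the 3 sensors passed, and their differences were -0.48, 0.01 and 0.43. Eif2ak3 read -0.58, -0.34, -0.64 and -0.49 on control arrays and -1.38, -0.92, -0.72 and -0.93 on PRH-labelled arrays, without overlap (-0.48, SE 0.170, limma adjusted p = 0.0769). Ern1 read -0.66, -1.38, -0.79 and -1.38 against -0.51, -0.80, -0.67 and -0.49, with a positive sign at every mouse number (0.43, SE 0.208, adjusted p = 0.167). Atf6 was the most even gene, with all 8 levels between 0.21 and 0.41.

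Of the 4 transcription factors 0 passed on the brightest probe. Atf4 read 5.23, 5.50, 5.22 and 5.68 on control arrays and 4.80, 5.15, 5.01 and 4.80 on PRH-labelled arrays (-0.47, SE 0.161, limma adjusted p = 0.0694), and a dimmer second probe differed by -0.56 with an adjusted p of 0.017, so the 2 probes share the sign and differ in the call. Ddit3 (Chop), a factor downstream of Atf4 linked to cell death under lasting stress, had the opposite sign, reading 0.38, 0.84, 0.31 and 0.77 against 1.03, 0.83, 0.90 and 1.21 (0.41, SE 0.173, adjusted p = 0.12). Xbp1, read without regard to splicing, differed by -0.13 (SE 0.140) and Atf3, a stress-induced repressor, by -0.12 (SE 0.223).

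The 4 downstream genes of the Perk arm gave differences between -0.14 and -0.07 and none passed. They were Ppp1r15a, which returns the initiation factor to its active state, Trib3, a pseudokinase that restrains Atf4, Asns, which makes asparagine, and Chac1, which degrades glutathione. Control array 3 stood out in Chac1, at 1.76 against -0.71 to 0.44 on the other 7 arrays, and in Asns, at 3.50 against 2.01 to 2.63. Without it the difference was 0.38 for Chac1 and 0.23 for Asns, neither of which passed. These 2 genes carry the CARE.

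Of the 2 remaining genes, Wfs1, an ER membrane protein lost in Wolfram syndrome, was the only one of the 39 with all PRH-labelled values above all controls. It read 0.58, 0.99, 0.76 and 0.87 on control arrays and 1.25, 1.28, 1.26 and 1.06 on PRH-labelled arrays (0.42, SE 0.137, limma adjusted p = 0.0606). Sec61b, a subunit of the channel through which proteins enter the ER, differed by -0.31 (SE 0.178, adjusted p = 0.238) on its brightest probe and by 0.43 (adjusted p = 0.0442) on another, so its direction depends on the probe.

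**Figure D4:**
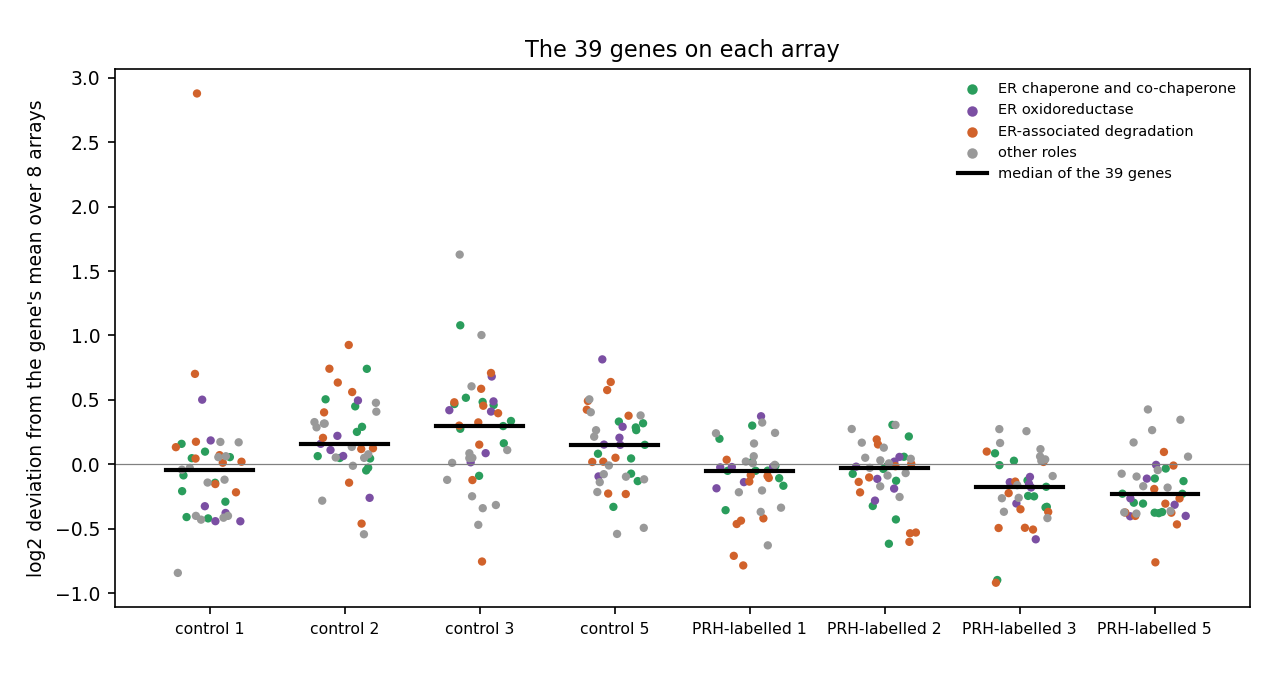
Deviation of each of the 39 genes from its own mean over the 8 arrays (log2, y axis) on each array (x axis), coloured by role, with the median of the 39 as a bar. The medians are 0.16, 0.30 and 0.15 on control arrays 2, 3 and 5, -0.04 on control array 1 and -0.23 to -0.03 on the PRH-labelled arrays; the highest point is Derl3 on control array 1.

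The spread between tumours was larger in the control group for 33 of the 39 genes, with a median SD of 0.27 against 0.16. Control array 1 was the lowest control for 20 genes and control array 3 the highest for 18. Shares over all named genes are not given beside these counts, so none is read as particular to the 39 genes. The median deviation from a gene's mean on control array 1 was -0.12 for chaperones, -0.35 for oxidoreductases and -0.41 for the Perk-arm genes, but 0.06 for degradation genes. On control array 3 it was 0.40, 0.41, 0.44 and 0.36. The degradation genes thus had positive medians on all 4 controls, and negative medians, -0.36 to -0.12, on all 4 PRH-labelled arrays. Chaperones and oxidoreductases had negative medians on all PRH-labelled arrays too, and on control array 1.

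Because the 2 groups differed in overall signal, the scaling sets where 0 lies. Centring arrays on the median instead of the 75th percentile moved the median of all items from 0.29 to -0.20 and made 19 of the 39 genes lower (48.7%, against 34.3% of named genes), among them Xbp1, Manf, Creld2 and Pdia6. Quantile normalization gave 9 lower (23.1%, against 17.96% of named genes) and 1 higher, Wfs1 (against 8.57%). Normexp background correction gave 10 lower (25.6%, against 14.6%) and 0 higher (against 15.2%), and the authors' normalized values 12 lower (30.8%, against 17.3%) and 0 higher (against 8.08%). The median of the 39 genes minus that of all items was -0.53 under both centrings, which differ by 1 constant an array, -0.32 once quantiles were matched, -0.65 after normexp and -0.33 in the table of the authors. Against named genes the same gaps were smaller, -0.22, -0.15, -0.33 and -0.20, and against named genes well above background on all arrays it was -0.16 under the 75th percentile. Of the 8 genes, 7 were lower in all 5 of these scalings, and Dnajb9 in 3. Genes that did not pass under the 75th percentile were lower in some of the others. Eif2ak3, Atf4, Dnajc3 and Edem1 were lower in 3 of the 5, as often as Dnajb9, and Edem2 in 2. With arrays centred on 7 spike-in probes, 0 of the 39 genes passed, as did 1 of all 34543 items; the differences were then -1.45 for Herpud1 (limma adjusted p = 0.126) and -0.37 in the median.

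**Figure D5:**
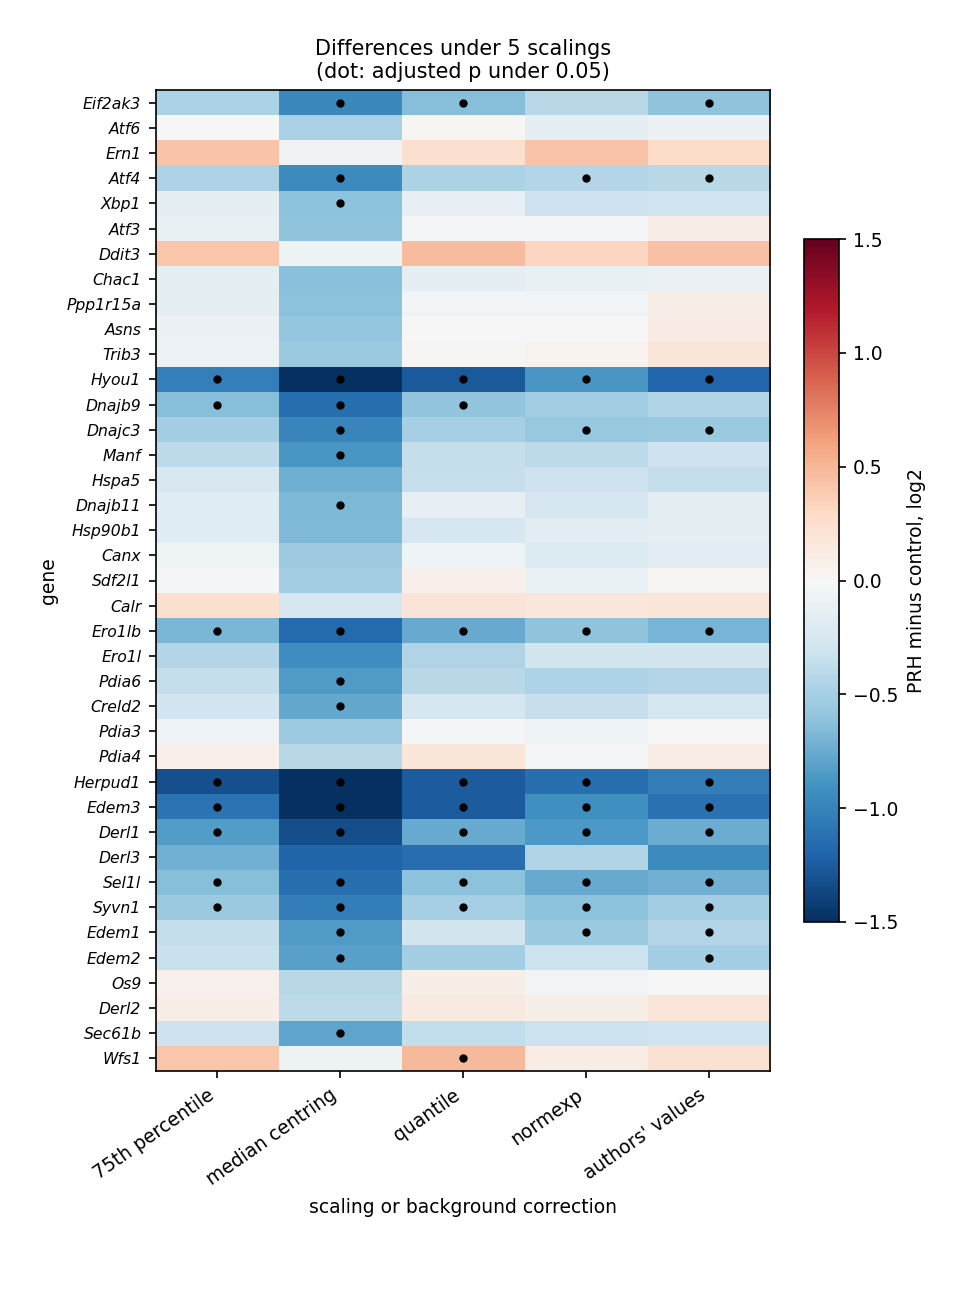
Difference between PRH-labelled and control tumours (log2, colour) for the 39 genes (rows, in the order of roles) under 5 scalings or background corrections (columns), with a dot where the limma adjusted p was under 0.05. Herpud1, Edem3, Derl1, Sel1l, Syvn1, Hyou1 and Ero1lb carry a dot in every column, and median centring shifts all rows to lower values.

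Further genes of the same pathways, 161 tested in 6 lists that hold none of the 39, gave 29 lower and 12 higher, with a median of -0.21. All 161 were well above background on every array, and the 18.01% lower and 7.45% higher stand beside 14.2% and 9.95% of the named genes of that kind. Leaving out any 1 of the 8 arrays moved the count of lower genes by over 1.5 times, to 53 (32.9%) without control array 1 and to between 11 and 17 without 1 of the others, as the background moved too. Among 25 other genes of ER-associated degradation, 2 were lower (8.0%) and 3 higher (12%), near that background in both directions in this setting. The lower count became 14 with median centring (against 34.3% of named genes), 6 with normexp (against 14.6%) and 4 in the authors' values (against 17.3%). It was 7 without control array 1 (against 21.1%) and 1 without any 1 of the other arrays (against 6.61% to 8.54%). The higher count became 0 with median centring (against 4.02%). Fam8a1, a partner of the Syvn1 complex, was lower (-0.91, SE 0.177, limma adjusted p = 0.0109), while Nploc4 (0.92, SE 0.151, adjusted p = 0.00758) and Ubxn6 (0.54, SE 0.109, adjusted p = 0.0123), which both work with the segregase that extracts proteins from the membrane, were higher. Both of the higher genes were called in 4 of the 5 scalings and Fam8a1 in all 5.

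Of 31 other chaperones and folding enzymes 6 were lower (19.4%, against the same 14.2%) and 3 higher (9.68%, against 9.95%). The thioredoxin-related membrane proteins Tmx3 (-1.35, SE 0.203) and Tmx1 (-0.92, SE 0.178) were lower and the sulfhydryl oxidase Qsox1 was higher (0.86, SE 0.115), with limma adjusted p of 0.00696, 0.0107 and 0.00686. Of 20 genes of N-glycosylation and the glycoprotein folding cycle 4 were lower (20.0%) and 1 higher (5.0%). Stt3b, a catalytic subunit of the oligosaccharyltransferase, was lower (-1.37, SE 0.163, limma adjusted p = 0.00686), with -0.47 on its other probe. Ostc, another subunit of the oligosaccharyltransferase, was lower too (-0.56, SE 0.131, limma adjusted p = 0.019). It was called in 4 of the 8 fits that left out 1 array. Uggt2, a sensor of glycoprotein folding, was higher on its brightest probe (1.25, SE 0.205) and had the opposite sign on its other (-0.60).

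Of the 22 genes of the translocon, signal peptidase and signal recognition particle 8 were lower (36.4%, against 14.2%) and 1 higher (4.55%, against 9.95%), with a median of -0.42. Without control array 1, 12 were lower, where 21.1% of named genes were. Without 1 of the other arrays 3 to 5 were lower, where 6.61% to 8.54% of named genes were. The lowest count was reached without control array 2 or 5 or PRH-labelled array 1 or 5. Sec11c, a catalytic subunit of signal peptidase, differed by -1.41 (SE 0.277), Srp68 of the recognition particle by -0.98 (SE 0.213), and Sec63, the J-domain protein at the channel, by -0.80 (SE 0.164) on its brightest probe and 0.01 on another. Their limma adjusted p were 0.0113, 0.0151 and 0.0124.

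In the integrated stress response, which the Perk arm shares with other kinases, 6 of 39 tested genes were lower (15.4%, near the 14.2% of the background) and 2 higher (5.13%). When 1 array was left out 2 to 10 were lower, while the share of named genes lower ranged from 6.61% to 21.1%. Eif2ak2, the kinase that senses double-stranded RNA, was lower (-1.09, SE 0.201, limma adjusted p = 0.00964). Nupr1, a stress-induced chromatin factor, was higher (0.98, SE 0.197, adjusted p = 0.0118; called in 3 of 5 scalings). The amino acid transporter Slc7a5 gave -1.14 and 0.81 on its 2 probes. Among 24 other signalling genes 3 were lower (12.5%), with Creb3l4, an ER-anchored factor related to Atf6 (-1.13, SE 0.209), and Atf6b (-0.50, SE 0.132) named by their p, and 2 were higher (8.33%), led by the apoptosis gene Bbc3 (0.61, SE 0.151). Of the fits that left out 1 array, Atf6b kept its call in 1 of 8 and Bbc3 in 2 of 8. Atf6b also lost it in the authors' values and Bbc3 under median centring.

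Heat shock proteins of the cytosol, read as a neighbouring folding system outside the ER, had 1 lower and 1 higher among 25 tested. These 4.0% each stand beside 14.2% lower and 9.95% higher in the background, and their median was -0.20. Hsp90ab1 was higher (0.77, SE 0.130, limma adjusted p = 0.00783), in 3 of 5 scalings, and Dnaja2 lower (-1.12, SE 0.190, adjusted p = 0.00786). The difference between this set and the ER genes was not tested. Marker genes of cell types gave few calls: 2 of the 8 carcinoma markers, Krt14 and Krt18, were higher, as was 1 of 7 endothelial markers, Kdr. The summed level of the carcinoma markers was 298 to 385 on control arrays and 393 to 521 on PRH-labelled arrays. Of 5 macrophage and 6 fibroblast markers 1 each was lower, and of 5 neutrophil markers 1 was higher. Of the T cell, adipocyte and muscle markers none passed. Beside 14.2% lower and 9.95% higher in the background, 1 or 2 calls in lists this small do not show that a cell type moved. The part of these cell types in the differences of the ER genes was not tested.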

How the data were processed

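The 8 scanner files hold 1-colour (Cy3) spot intensities. Per the file headers, Agilent Feature Extraction 10.7.3.1 produced the deposited intensity for a mouse array design on mm9, and the processed signal is background-subtracted; the submitters' processing notes name version 9.1. The authors' deposited table holds linear intensities with 1 common maximum; its background correction and any offset are not given in the sources used here, and its medians lay between 123.4 and 125.1.

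The deposited processed signal was put on a log2 scale and the 75th percentile over an array's non-control spots was subtracted. Spots flagged as non-uniform or as population outliers were dropped, unless all spots of a probe were flagged. These were 197 to 276 spots on control arrays and 138 to 203 on PRH-labelled arrays. The log2 values of the remaining repeat spots were averaged by probe. The normexp alternative kept all spots. Testing required a signal well above background on 4 or more arrays of the 8 (39463 probes); a gene was represented by its brightest tested probe. Accessions were named through RefSeq's GRCm38.p6 gene table, used for names alone. The model was group alone, in limma 3.58.1 (R 4.3.3), two-sided, with Benjamini-Hochberg adjustment over all 34543 items and a threshold of 0.05. It was run on simulated data with independent errors and few changed items. That simulation holds no difference in overall signal between groups and no link between same-numbered arrays, so it cannot speak to either. Other probes of a gene come from the same model over all tested probes.

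Alternatives were the 75th percentile with each probe once (added after seeing the data), median, quantile and spike-in centring, normexp (offset 50, on the median spot signal, the mean spot signal was not used here), the authors' values, other filters, the mean of a gene's probes, a block for mouse number, and leaving out each array. The 2 groups share their mouse numbers. Deviations of same-numbered arrays from their group means correlated with r of 0.203, 0.436, 0.665 and 0.274 (number 1, 2, 3 and 5). Correlations of differently numbered arrays are not given beside them. Each mouse number also goes with 1 value of the last number of the header's barcode, so mouse number and that part of the position cannot be told apart. The number of arrays limits the precision, and each p-value sets a difference against the spread between these samples. The main model takes no account of the shared mouse numbers. The genes and lists were chosen with earlier results of these data known. Named are all 39 genes, the 3 genes of smallest p in each pathway list, 2 in the heat shock list, and markers where a result turns on them.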

Additional observations from a re-analysis of the deposited data

Results flagged for a closer look

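In each group of 4 arrays the highest and the lowest value of each of the 39 genes were compared with the nearest other value by Dixon's ratio at the 95% level, and 6 of 78 groups stood out, where chance gives about 5%. Hspa5 was lowest on control array 1, at 6.03, and Derl3 was highest there, at 0.81. Derl2 was highest among controls on array 3, at 3.94. Herpud1 was lowest among controls on array 5, at 2.15, which is still above every PRH-labelled array. In the PRH-labelled group Dnajc3 was highest on array 1, at 0.25, and Wfs1 was lowest on array 5, at 1.06.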

How the results depend on the processing

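Of the 39 genes, 8 were lower and 0 higher, with a median of -0.25; the count of lower genes became 19 with median centring (median -0.73) and 0 with spike-in centring, and 4 to 13 when 1 array was left out. The count of higher genes became 1 with quantile normalization (against 8.57% of named genes) and 1 with the filter of all 8 arrays (against 11.4%). Other settings gave 7 to 12 lower genes (17.9% to 30.8%, against 8.08% to 17.96% of named genes). With mouse number as a replicate block 6 were lower (15.4%, against 12.4% of named genes) and 0 higher (against 15.0%). The block ended the calls of Hyou1 and Dnajb9 and of none of the other 31 of the 33 genes named as passing. In the pathway lists (29 lower, 12 higher) median centring gave 82 and 1 (50.9% and 0.621%, against 34.3% and 4.02% of named genes), spike-in centring 0 and 0, the percentile with each probe once 7 higher, no filter on dim probes 7 higher, and leaving out 1 array 11 to 53 lower and 6 to 11 higher.

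None of the 8 lower genes turned its sign under any alternative run. Signs that turned belong to genes that did not pass. Under median centring these were Ern1 (-0.054), Atf6 (-0.48), Ddit3 (-0.072), Calr (-0.25), Pdia4 (-0.41), Derl2 (-0.39), Os9 (-0.42) and Wfs1 (-0.071). Spike-in centring turned Atf6 (-0.12), Pdia4 (-0.056), Derl2 (-0.030) and Os9 (-0.061), and normexp turned Atf6 (-0.13), Trib3 (0.047), Pdia4 (-0.032) and Os9 (-0.037). In the authors' values Atf6 was -0.088, Atf3 0.10, Trib3 0.18, Asns 0.12, Ppp1r15a 0.087, Sdf2l1 0.035 and Os9 -0.011. Quantile normalization turned Trib3 (0.017), Asns (0.000382) and Sdf2l1 (0.078), the percentile with each probe once Atf6 (-0.055), and the mean of a gene's probes Derl2 (-0.049) and Sec61b (0.058). Leaving out 1 array took Atf6 from -0.033 to 0.038, Atf3 from -0.25 to 0.0033, Trib3 from -0.23 to 0.072, Asns from -0.27 to 0.23, Chac1 from -0.45 to 0.38, Canx from -0.17 to 0.017, Sdf2l1 from -0.13 to 0.14, Pdia3 from -0.19 to 0.033, Pdia4 from -0.064 to 0.22 and Derl3 from -1.09 to 0.12. The cause was not tested. All 39 genes were well above background on every array, and the part of signal level in these turns was not tested.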
